A study of Mus musculus with 12 samples.

Results

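The 6 livers of mice lacking Lcorl fell into 2 groups by the transcript of squalene epoxidase (Sqle), the enzyme that adds oxygen to squalene at the start of the sterol branch of cholesterol synthesis. The groups were chosen by this measured value alone: a liver was called sterol-low where its Sqle normalized count was under 1000 and sterol-normal where it was 1000 or more. This put 3 livers in each group, out of 12 in the series. The livers were numbered in the order of their records: KO 1, KO 2 and KO 4 were sterol-low, and KO 3, KO 5 and KO 6 were sterol-normal. RNA sequencing of total liver RNA compared 6 mice with a global Lcorl knockout (KO) and 6 wild-type (WT) mice. All 12 were female and 3 weeks old, at weaning, and each library carries its own number in its label. The labels used here do not state the allele, the strain, litters, feeding or body weight. A whole-body knockout removes the gene from every organ, so a liver transcript may differ through other tissues as well as through the liver.

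Cholesterol synthesis is controlled by SREBP2, a transcription factor held in the endoplasmic reticulum by its escort SCAP and the anchor proteins INSIG1 and INSIG2 when sterol is plentiful. When membrane sterol falls, the factor moves to the Golgi, is cut free and enters the nucleus, where it raises transcription of the synthesis enzymes and of genes of sterol uptake. The related factor SREBP1c acts mainly on fatty acid synthesis and responds to insulin and to oxysterols through the receptor LXR. The liver of a weanling mouse is still growing, so part of its cells are dividing, and it changes at this age from milk fat to a diet rich in carbohydrate.

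Sqle and the other sterol synthesis genes chose the groups or moved with the choice, so their values are a description. Sqle (chr15:59315077-59331192 on the plus strand of GRCm38) measured 154, 159 and 151 normalized counts in KO 1, KO 2 and KO 4, and 3282, 3691 and 6021 in KO 3, KO 5 and KO 6. The 6 WT livers ran from 3779 through a median of 4502 to 5167. On either side of the limit of 1000, the nearest livers measured 159 and 3282. No liver lay in between, and the lowest liver outside the sterol-low group stood 20.6-fold above the highest inside it. The WT livers, by contrast, spanned 1.37-fold.

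The contrast was the difference between the mean log2(normalized count + 1) of the 3 sterol-low and the 3 sterol-normal livers, and folds below are on that scale, where a gene with few counts shows less than its true fold. A gene was called separated where the values of the groups did not overlap and the means differed by at least 2-fold. Because the groups were made from a transcript of these same libraries, no p-value is given for any gene between them. Standard errors (SE, n = 3 and 3) describe the spread between livers within groups. Of 13532 genes with a mean of at least 10 normalized counts over the 6 KO livers, 290 were separated (2.14%), with 239 lower (1.77%) and 51 higher (0.377%) in the sterol-low livers. Without the size limit, 1073 genes (7.93%) lay lower and 933 (6.89%) higher without overlap. The median difference over all genes compared was 0.01 on the log2 scale.

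**Figure D1:**
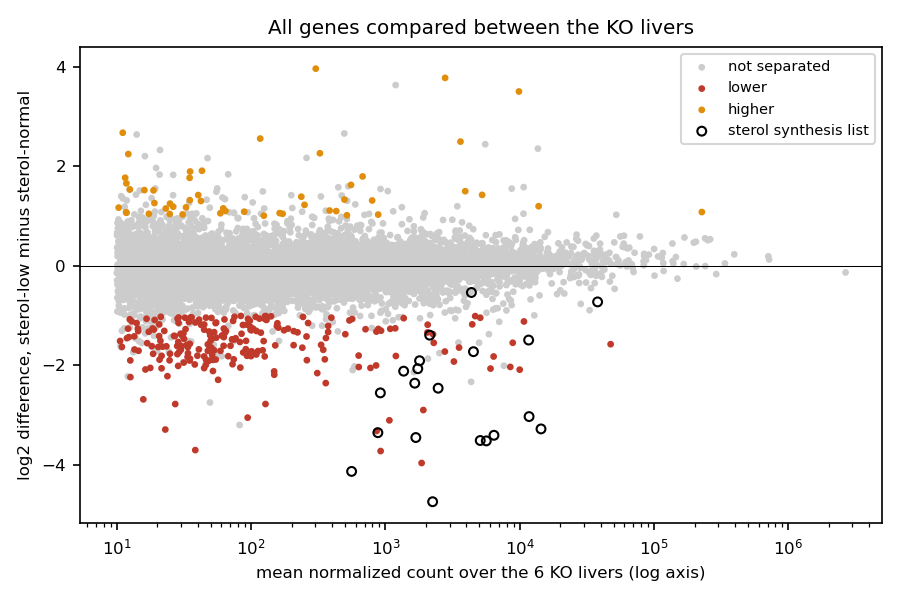
Each point is 1 of the 13532 genes compared; the x axis is its mean normalized count over the 6 KO livers on a log axis, and the y axis is the log2 difference, sterol-low minus sterol-normal. Red points are the 239 genes lower and orange points the 51 genes higher in the sterol-low livers, and open circles are the 20 genes of the sterol synthesis list, all of them below 0.

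The genotype labels were checked on Lcorl itself (chr5:45697181-45857615, minus strand). It had 0 reads in 5 KO libraries and 3 in KO 5, a normalized count of 2.83, against 234 to 308 normalized counts in WT. A difference in Lcorl between the KO groups was not detectable at this depth, which was 27692285 to 31296485 reads per KO library and 21769795 to 28655120 per WT library. The 15 hepatocyte genes, albumin among them, had a median difference of 0.05 with 0 separated. KO 2 was the only library with transcripts of Reg1, a pancreatic acinar gene, at 126 normalized counts, and WT 6 the only one with more than 1 normalized count of the fat cell hormone adiponectin (Adipoq, 53.4). None of the 3 acinar genes compared, Reg1 among them, was separated. The summed acinar count did not follow Reg1, at 193 to 468 in the sterol-low, 173 to 268 in the sterol-normal and 320 to 558 in the WT livers.

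All 20 genes of the sterol synthesis list lay lower in the sterol-low livers without overlap, and 18 of them by at least 2-fold. Fdps, which makes farnesyl diphosphate, measured 675, 854 and 872 in KO 1, KO 2 and KO 4 and 6687, 9446 and 11902 in KO 3, KO 5 and KO 6 (11.4-fold, log2 difference −3.51, SE 0.27). Idi1 (chr13:8885501-8892451, plus strand), which isomerises isopentenyl diphosphate, measured 48.7, 71.3 and 56.8 against 780, 1192 and 1207, a 17.6-fold gap. Nsdhl (chrX:72918557-72958514, plus strand), which works on the 4-methyl sterols, measured 273, 285 and 260 against 2290, 2830 and 4152. In each of the 20 genes all 3 sterol-low livers lay below every WT liver, and in none did all 3 sterol-normal livers do so. The isomerase gene Ebp, at 1.45-fold, was among those short of the size limit.

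**Figure D2:**
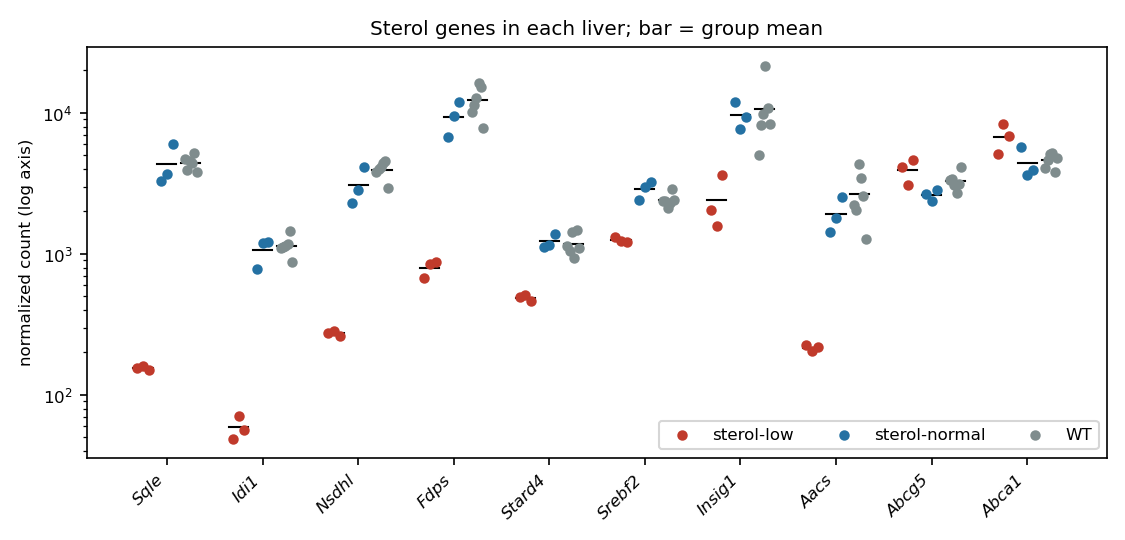
Normalized counts on a log axis for 10 sterol genes; each point is 1 liver, red for the 3 sterol-low, blue for the 3 sterol-normal and grey for the 6 WT, and each bar is a group mean. Red points lie below all blue and grey points for Sqle, Idi1, Nsdhl, Fdps, Stard4, Srebf2, Insig1 and Aacs, whereas for the exporter genes Abcg5 and Abca1 they do not.

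The promoters of a few genes are shown because the genes below moved together with the sterol synthesis genes, and a promoter shows which short motifs the groups share. Each is the 250 bases before the RefSeq start on GRCm38.p6, read 5′ to 3′ on the gene's own strand. Capitals mark CCAAT (or ATTGG, the same motif on the other strand), a motif known to be bound by NF-Y beside SREBP2. They also mark TCACCCCAC, a form of the sterol regulatory element, and TTTGAA (or TTCAAA), a core of the cell cycle homology element. Idi1 (chr13:8885356-8885605, plus), Nsdhl (chrX:72918271-72918520, plus) and Hmgcs1 (chr13:119690101-119690350, plus), which encodes a synthase at the start of the mevalonate pathway, stand for the sterol genes. Ccnb2 (chr9:70421555-70421804, minus), a mitotic cyclin, and Top2a (chr11:99024190-99024439, minus), a topoisomerase, stand for the mitotic genes described further on.
Idi1: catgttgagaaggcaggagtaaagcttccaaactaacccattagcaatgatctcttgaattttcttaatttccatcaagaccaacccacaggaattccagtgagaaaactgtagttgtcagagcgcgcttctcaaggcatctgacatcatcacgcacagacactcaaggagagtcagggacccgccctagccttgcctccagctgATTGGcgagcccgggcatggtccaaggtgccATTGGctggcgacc
Nsdhl: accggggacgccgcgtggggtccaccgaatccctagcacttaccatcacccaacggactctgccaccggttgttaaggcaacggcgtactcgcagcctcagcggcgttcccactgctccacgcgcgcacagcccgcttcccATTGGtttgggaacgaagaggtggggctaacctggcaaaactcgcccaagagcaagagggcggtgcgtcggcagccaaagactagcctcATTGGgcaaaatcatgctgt
Hmgcs1: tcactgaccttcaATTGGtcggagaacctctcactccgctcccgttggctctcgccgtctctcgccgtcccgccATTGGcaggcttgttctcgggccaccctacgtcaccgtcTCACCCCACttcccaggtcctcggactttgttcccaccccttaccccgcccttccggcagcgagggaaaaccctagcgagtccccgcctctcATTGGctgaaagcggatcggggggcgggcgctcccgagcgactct
Ccnb2: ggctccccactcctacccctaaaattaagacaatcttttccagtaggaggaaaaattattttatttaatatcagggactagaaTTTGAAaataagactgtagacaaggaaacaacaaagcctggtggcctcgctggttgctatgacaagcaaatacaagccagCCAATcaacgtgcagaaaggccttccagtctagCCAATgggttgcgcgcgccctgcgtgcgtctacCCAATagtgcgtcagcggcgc
Top2a: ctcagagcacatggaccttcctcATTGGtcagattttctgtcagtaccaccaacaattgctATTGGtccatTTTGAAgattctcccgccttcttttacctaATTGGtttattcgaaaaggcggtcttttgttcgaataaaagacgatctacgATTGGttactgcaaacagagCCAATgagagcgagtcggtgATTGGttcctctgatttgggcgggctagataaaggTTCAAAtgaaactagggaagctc

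CCAAT on either strand was present in the promoters of 14 of 15 sterol synthesis genes with a RefSeq promoter (93.3%). It was present in 20 of 26 mitotic genes (76.9%), 14 of 19 fatty acid synthesis genes (73.7%) and 18 of 25 DNA replication genes (72.0%). Genes of sterol uptake, trafficking and SREBP2 control held it in 7 of 11 promoters (63.6%), and acute phase genes in 2 of 20 (10.0%). The share was 40.4% over 10113 compared genes with a promoter and 37.5% over all 27025 genes of the promoter table. TCACCCCAC was found in 1 of 15 sterol synthesis genes, Hmgcs1, and in 0.555% of all promoters. TTTGAA was found in 9 of 26 mitotic genes (34.6%), in 13.0% of compared genes and in 18.3% of all. These are matches of letters in a window, with no test and no statement on binding. Lists without a separated gene were not searched, so whether such shares follow the contrast was not tested.

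Outside the sterol synthesis list, 221 genes were lower and 51 higher in the sterol-low livers, and 71 and 10 of these were on any of the 46 gene lists used. Set beside WT, 188 of the 221 had all 3 sterol-low livers below every WT liver. For 76 of these no sterol-normal liver lay below WT, and for 13 all 6 KO livers did. Of the 51 higher genes, 18 had all 3 sterol-low livers above every WT liver, and none had all 6 KO livers above. These genes were chosen by their values in the sterol-low livers, so their place beside WT follows in part from the choice. For such places beside WT, here and in the lists, the share over all genes compared was not counted. Among the sterol-low livers the most extreme was most often KO 2, which was lowest for 160 of the 221 genes and highest for 28 of the 51.

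Genes of sterol uptake, trafficking and SREBP2 control followed the synthesis genes in part: 7 of 15 compared were lower and none higher (list median −0.80). The share lower over all genes was 1.77%. Aacs (chr5:125475814-125517410, plus strand), which activates acetoacetate for lipid synthesis, measured 225, 204 and 219 in the sterol-low and 1421, 1811 and 2534 in the sterol-normal livers (8.62-fold, SE 0.25 on the log2 scale). The sterol-normal values lay inside the WT range of 1278 to 4333, and the sterol-low values lay far under it. Insig1, which anchors SCAP, measured 2056, 1569 and 3645 against 11885, 7739 and 9414. Srebf2, which encodes SREBP2, showed a smaller gap, with 1314, 1238 and 1206 against 2395, 3001 and 3211 (2.27-fold). Stard4, a cholesterol carrier, was 2.50-fold and Rdh11, a retinal reductase, 3.49-fold lower. Other control genes did not part the groups: Scap differed by −0.47 on the log2 scale (SE 0.16), the lysosomal exporter Npc1 by −0.30 (SE 0.34) and Insig2 by 0.40 (SE 0.41).

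None of the 12 cholesterol export and LXR target genes was separated, and their median difference was 0.05. Abcg5 and Abcg8, which together form the exporter of sterols into bile, lay on the opposite side from the synthesis genes without overlap but under 2-fold. Abcg5 measured 4098, 3063 and 4662 in KO 1, KO 2 and KO 4 against 2657, 2377 and 2834, and Abcg8 3335, 2821 and 3218 against 2104, 2452 and 2149. For Abca1, which loads cholesterol onto apolipoprotein A-I, the groups overlapped, with 5076, 8337 and 6884 against 5681, 3619 and 3941.

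Fatty acid synthesis genes differed in another way, since the sterol-normal livers were also low for many of them. Of 20 compared, 7 were lower in the sterol-low livers and none higher (median −0.98), against 1.77% lower over all genes. All 3 sterol-low livers lay below every WT liver for 18 of the 20, and all 3 sterol-normal livers for 5. Thrsp (chr7:97412938-97417730, minus strand), which encodes a nuclear protein tied to lipogenesis, measured 413, 129 and 90.5 in KO 1, KO 2 and KO 4, 1376, 1872 and 7268 in KO 3, KO 5 and KO 6, and 7730 to 52883 in WT. The 3 sets of livers were thus in steps, with every sterol-normal value between the sterol-low and the WT values. Fasn (chr11:120805846-120824547, minus strand), the fatty acid synthase gene, measured 2525, 2575 and 3098, then 10822, 6442 and 12835, with a WT median of 28540 (sterol-low against sterol-normal 3.54-fold, SE 0.31 on the log2 scale). Elovl6, an elongase, was 4.10-fold lower, Acss2, an acetyl-CoA synthetase, 2.92-fold, and Acly, ATP citrate lyase, 2.26-fold lower.

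The desaturase gene Scd1 did not follow the split, since KO 5 was low for it. It measured 918, 1621 and 4280 in KO 1, KO 2 and KO 4 and 22205, 1213 and 15445 in KO 3, KO 5 and KO 6, and all 6 lay below the WT minimum of 33536. The genes of the regulators themselves were also not separated. Srebf1 differed by 0.19 on the log2 scale (SE 0.50) and Mlxipl, which encodes the carbohydrate-responsive factor ChREBP, by 0.11 (SE 0.17).

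Genes of mitosis parted the groups almost as a block: 27 of 30 were lower in the sterol-low livers and none higher, with a median of −1.64. Of all genes compared, 1.77% were lower. For 28 of the 30, all 3 sterol-low livers lay below every WT liver, and for none did all 3 sterol-normal livers. The share of all genes placed in this way was not counted. Averaged over the list, the log2 distance from the WT mean was −2.26, −2.83 and −1.52 in KO 1, KO 2 and KO 4. It was −0.38, −1.02 and −0.37 in KO 3, KO 5 and KO 6, with WT from −0.64 to 0.99. Sterol-normal KO 5 thus also lay below the lowest WT liver. Top2a, which untangles chromosomes, measured 77.7, 65.3 and 225 normalized counts in KO 1, KO 2 and KO 4 and 452, 324 and 414 in KO 3, KO 5 and KO 6, with WT at 328, 504 and 931 (lowest, median and highest). KO 4 was the highest of the sterol-low livers, yet still below the lowest WT liver (3.73-fold between groups, SE 0.57 on the log2 scale). Aurkb, the kinase of the chromosomal passenger complex, measured 28.0, 16.8 and 47.2 against 125, 102 and 117, and Ccnb1, which encodes cyclin B1, 22.8, 6.93 and 35.6 against 92.7, 43.3 and 87.7. Cenpf, a kinetochore gene, was 4.33-fold lower, Cdk1, the mitotic kinase, 3.03-fold and the proliferation marker Mki67 3.01-fold lower. The 3 genes not separated were Kif23 (1.93-fold without overlap), Nusap1 and Anln, the latter 2 with overlap at KO 5.

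In bulk liver, fewer dividing cells and less of these RNAs per cell cannot be told apart. Markers of red blood cells and their precursors, which also divide, lay in the same direction in part. None of the 16 erythroid genes compared was separated, 12 differences were below 0 and the median was −0.51. Without KO 5, 4 of 16 were lower (median −0.98), without KO 4, 2 of 15 were, and without KO 6 the median was −0.25 with 0 lower. Among KO 2, KO 3 and KO 4 alone, 3 of 16 were lower. Over all genes the count lower was 306 without KO 5, 362 without KO 4, 222 without KO 6 and 345 among KO 2, KO 3 and KO 4. Their summed normalized count ran from 14044 to 19437 in the sterol-low livers, 16168 to 31609 in the sterol-normal livers and 13006 to 52279 in WT. The identical rows Hba-a1 and Hba-a2 are both included, as are the identical rows Hbb-bs and Hbb-bt, so globin values count more than once. The globin gene Hbb-bs and Alas2, the erythroid enzyme of heme synthesis, were above 0 in all 12 livers. The part of such cells in the mitotic difference was not tested.

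DNA replication genes showed the same direction with smaller gaps: 9 of 29 were lower and none higher (median −0.75), and 25 of the 29 lay lower without overlap. Over all genes the shares were 1.77% lower and, without the size limit, 7.93% lower without overlap. Rrm2, a subunit of ribonucleotide reductase, measured 86.0, 64.3 and 169 in the sterol-low and 414, 232 and 276 in the sterol-normal livers, and Uhrf1, which maintains DNA methylation, 58.0, 22.8 and 108 against 221, 170 and 177. Pcna, the sliding clamp, differed by only 1.31-fold, though without overlap. KO 2 was lowest for these genes, and without it the count lower was 4 of 29 (220 over all genes). None of 17 genes of cell cycle arrest and p53 response was separated (median −0.12). The arrest gene Cdkn1a measured 129, 776 and 392 in the sterol-low livers and 349, 436 and 85.8 in the sterol-normal livers.

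**Figure D3:**
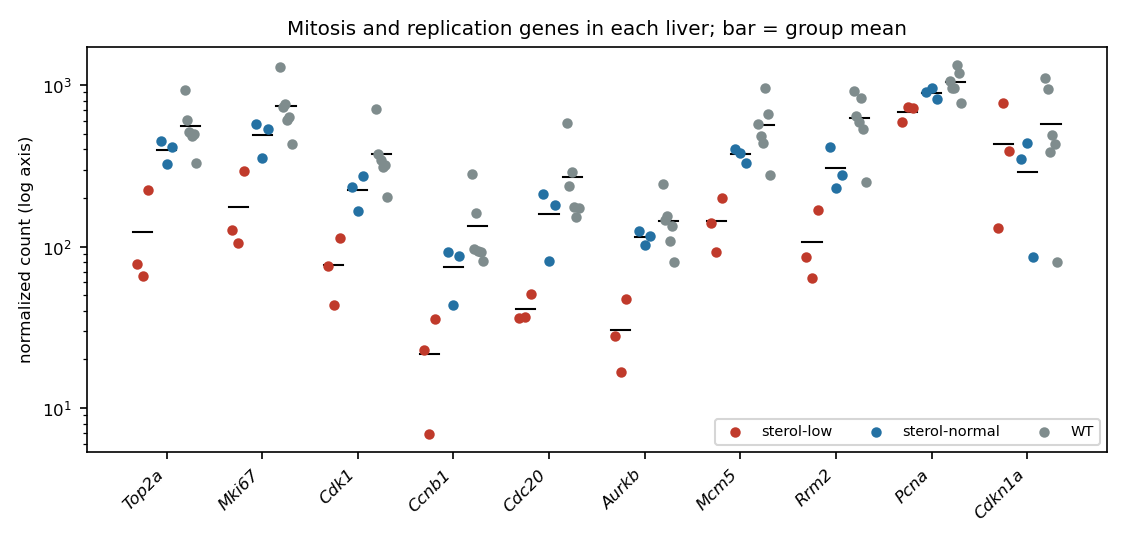
Normalized counts on a log axis for 10 genes of the cell cycle; each point is 1 liver, red for the 3 sterol-low, blue for the 3 sterol-normal and grey for the 6 WT, and each bar is a group mean. For the mitotic genes Top2a, Mki67, Cdk1, Ccnb1, Cdc20 and Aurkb every red point lies below every blue point, the groups lie close together for Pcna, and they overlap for Cdkn1a.

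Higher in the sterol-low livers were acute phase genes, whose products the liver secretes in inflammation: 6 of 23 were higher and none lower, and all 23 differences were above 0 (median 0.89). Over all genes compared, 0.377% were higher, and 6939 of 13532 differences were above 0. Orm2 (chr4:63362449-63365878, plus strand), an orosomucoid, measured 428, 12693 and 2820 in KO 1, KO 2 and KO 4 against 355, 49.9 and 326. KO 2 stood far above the rest, while KO 1 lay close to the sterol-normal livers and inside the WT range of 110 to 1325. Lcn2 (chr2:32384633-32388252, minus strand), which encodes lipocalin 2, measured 1764, 14155 and 3330 against 970, 473 and 1003, and the haptoglobin gene Hp 201843, 464621 and 273810 against 156561, 131479 and 131761. Orm3, Orm1 and Saa4 completed the 6, at 15.6-fold, 11.4-fold and 2.30-fold. Reads of the closely similar orosomucoid and serum amyloid genes may have been assigned to the wrong copy.

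The acute phase difference was thus uneven across livers. Averaged over the 23 genes, the log2 distance from the WT mean was −0.43, 2.04 and 0.55 in KO 1, KO 2 and KO 4, against −0.34, −1.06 and −0.39 in KO 3, KO 5 and KO 6 and −0.45 to 0.55 in WT. Saa1, which was not separated, measured 578, 72515 and 4266 in the sterol-low and 2030, 306 and 2138 in the sterol-normal livers. Without KO 2, 4 of 23 acute phase genes were higher and the list median was 0.34, and without KO 1, 12 were higher and the median was 1.35. Over all genes 71 were higher without KO 2 and 129 without KO 1, against 51 with all KO livers. KO 2 also had the highest mean for the 19 endoplasmic reticulum chaperone genes, none of which was separated, and was the library with Reg1. The part of these features in the acute phase difference was not tested.

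Neutrophil genes stood out in KO 4, where their mean log2 difference from WT was 2.04, against 0.10 in KO 1 and −0.17 in KO 2. Of 11 compared, 2 were higher, S100a8 and Lcn2, the latter also made by hepatocytes. S100a8, a subunit of the neutrophil protein calprotectin, measured 399, 273 and 1621 in KO 1, KO 2 and KO 4 against 253, 246 and 177. Summed over the neutrophil and mast cell list, normalized counts ran from 3324 to 15109 in the sterol-low livers, 1506 to 2052 in the sterol-normal livers and 1805 to 4161 in WT, and Lcn2 made up most of the highest sum. The neutrophil granule genes Elane, Mpo and Ngp were above 0 in all livers. Without KO 4, 1 of 11 was higher, without KO 3, 4 were, and without KO 2, 7 were. Over all genes the count higher was 99, 122 and 71 in these settings, against 51 (0.377%) with all KO livers.

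Interferon response genes were lower in part, with 7 of 27 lower and none higher (median −0.91). The count moved with single livers. The guanylate-binding protein gene Gbp7 measured 402, 280 and 429 in the sterol-low and 447, 1885 and 816 in the sterol-normal livers, so that KO 5 made most of the gap, against 580 to 768 in WT. Ifit3, an interferon-induced gene, parted the groups more evenly, with 220, 155 and 321 against 452, 575 and 523. Without KO 5, 2 of 27 were lower, without KO 2, 3 were, without KO 4, 11 were, and without KO 3, 15 were. Over all genes the count lower was 306, 220, 362 and 323 in these settings, against 239 (1.77%) with all KO livers. By label number, KO 1 lay apart from the other KO livers, and sterol-normal KO 5 and KO 6 lay near no sterol-low liver. What the numbers stand for is not stated, so they and the split cannot be fully told apart. The label numbers of KO 2, KO 3 and KO 4 lie close together. Among these alone 1 of 27 interferon genes was lower (median −0.21), while 29 of 30 mitotic genes were lower and 13 of 23 acute phase genes higher. Of 13567 genes compared among these livers, 345 were lower and 164 higher. Fewer livers overlap less often, so part of any rise in a count comes from their number.

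**Figure D4:**
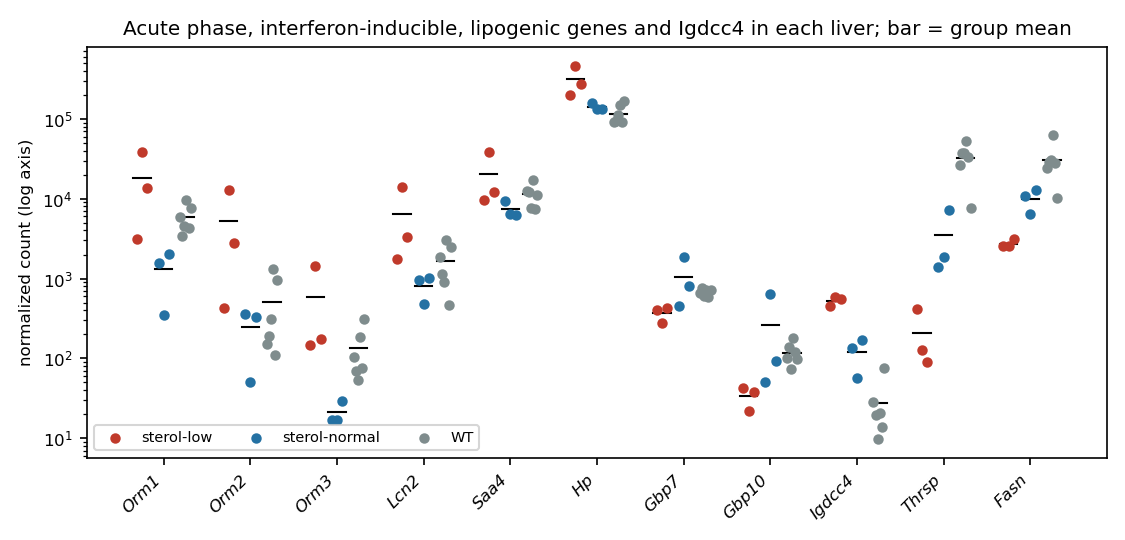
Normalized counts on a log axis for acute phase (Orm1, Orm2, Orm3, Lcn2, Saa4, Hp), interferon-inducible (Gbp7, Gbp10) and lipogenic (Thrsp, Fasn) genes and Igdcc4; each point is 1 liver, red for the 3 sterol-low, blue for the 3 sterol-normal and grey for the 6 WT, and each bar is a group mean. KO 2 is the highest red point for Orm1 (38552) and KO 5 the highest blue point for Gbp10 (643).

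Among separated genes with a mean of at least 50 normalized counts, the largest gaps outside the sterol synthesis list included several that no list held. Ffar4, a receptor for long-chain fatty acids, measured 154, 246 and 171 in the sterol-low livers against 92.7, 17.0 and 18.3, with WT at 21.0 to 35.1. Igdcc4 (chr9:65101486-65137940, plus strand), of the immunoglobulin superfamily, measured 448, 580 and 561 against 135, 56.5 and 168, while the WT livers ran from 9.76 to 76.3. Both genes were thus highest in the sterol-low livers, and for Igdcc4 the sterol-normal livers lay between those and most of WT. Tuba8, a tubulin gene, was also highest in the sterol-low livers, with 357, 310 and 347, then 196, 106 and 100, and 51.5 to 138 in WT. The transcriptional repressor gene Bcl6 was 3.48-fold higher, the phospholipid flippase gene Atp11a 3.09-fold, the lubricin gene Prg4 2.83-fold and the nicotinamide methyltransferase gene Nnmt 2.69-fold higher. For Atp11a and Prg4, KO 2 was far above the other livers, at 1638 and 12139 normalized counts.

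Among lower genes of this rank, some also lay below WT in most KO livers. Ces3a, a carboxylesterase, measured 234, 152 and 61.6 in the sterol-low and 651, 1219 and 2836 in the sterol-normal livers, and all 6 lay below the WT minimum of 3845. Lipg, the endothelial lipase gene, measured 124, 77.2 and 134 against 424, 381 and 722, with WT from 629 to 1555. Csrp3, a LIM protein gene, measured 17.6, 15.8 and 19.3 against 68.0, 71.6 and 148. For other genes the WT livers alone spanned a range as wide as the gap. Cyp2c69, a cytochrome P450, measured 35.6 to 149 in the sterol-low livers, 181 to 3601 in the sterol-normal and 54.8 to 11133 in WT. For Myc (5.13-fold) the WT range of 75.2 to 2695 held all 6 KO livers, as did that of the steroid dehydrogenase gene Hsd3b1 (4.56-fold), from 6.37 to 892. Cyp3a44 (6.87-fold) and the glycogen-targeting subunit gene Ppp1r3g (8.30-fold) were below every WT liver in the sterol-low livers, with WT spans of 38.2 to 1533 and 22.3 to 327. Carboxylesterase and cytochrome P450 genes lie in families of near copies, so their reads may be divided.

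Growth hormone and IGF genes gave 2 of 19 lower and none higher (median −0.09), and 4 lower without KO 3. Over all genes 239 were lower (1.77%), and 323 without KO 3, so these small counts say little about the list. Igfals, which encodes the acid-labile subunit that carries IGF in blood, measured 572, 99.0 and 368 against 810, 1105 and 1684, and Cish, a feedback inhibitor of growth hormone signalling, 621, 259 and 177 against 653, 1488 and 1909. Igf1 overlapped, with 6611, 2669 and 4147 against 5998, 9840 and 12892. H19, an imprinted noncoding RNA of fetal liver, was 1 of 2 genes among the 221 for which the medians of both KO groups lay above every WT liver. It measured 31915, 14681 and 27706 in KO 1, KO 2 and KO 4, 66524, 72242 and 71639 in KO 3, KO 5 and KO 6, and 3808 to 21481 in WT. Its imprinted neighbour Igf2 did not follow it, with 789, 1261 and 308 against 541, 968 and 711, nor did the fetal marker Afp, with 1397, 641 and 285 against 254, 487 and 454.

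Single genes of other liver programmes were also lower. With 1.77% of all genes lower, 1 such gene in a list of the sizes below says little about the list. Cyp7a1, the rate-limiting enzyme of bile acid synthesis, measured 6242, 764 and 8212 against 10999, 13849 and 19815, and was the only 1 of 19 bile acid genes separated. KO 2 was again the lowest, and WT ran from 3198 to 11862. G6pc, the glucose-6-phosphatase gene, measured 2718, 5425 and 3664 against 5743, 26850 and 8767 (1 of 12 gluconeogenic genes). KO 5 was far the highest, and without it the difference of G6pc was −0.91 on the log2 scale, under the 2-fold limit, with 0 of 12 genes lower and a list median of 0.10. Car3, a carbonic anhydrase gene, measured 7802, 448 and 6942 against 13075, 12466 and 10253, and Hamp2, a hepcidin gene, 272, 883 and 549 against 962, 1561 and 1331 with WT at 4836 or more. Serpina1e and Selenbp2, both members of families of near copies, were 3.80-fold and 3.30-fold lower. Nipal1, a magnesium transporter gene, and the small Bex2 gene were 2.41-fold and 2.22-fold lower, and Bcl3, an NF-kappaB partner, was 2.49-fold higher.

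Of the 46 lists, 24 had no separated member, and their medians lay between −0.51 and 0.35. With 1.77% of all genes lower and 0.377% higher, a count of 0 in a list of this size is near the share over all genes, so it says little about the list. The size and sign of the differences are given beside it. Several lists were one-sided with small differences. Without the size limit, 6.89% of all genes lay higher without overlap, the share to set beside the counts that follow. For the nuclear-encoded respiratory chain, 32 of 33 differences were above 0 (median 0.12) and 6 of 33 genes were higher without overlap. All 3 sterol-low livers lay above every WT liver for 11 of these genes, and all 3 sterol-normal livers for 1. Averaged over the list, the log2 distance from the WT mean was 0.27, 0.06 and 0.14 in KO 1, KO 2 and KO 4 and 0.04, 0.13 and −0.04 in KO 3, KO 5 and KO 6, so the groups overlapped at KO 5, with WT from −0.05 to 0.05. For amino acid catabolism and the urea cycle, 25 of 28 differences were above 0 (median 0.18), 5 of 28 genes were higher without overlap, and for 5 all 3 sterol-low livers lay above every WT liver.

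In other lists without a separated member the signs were mixed. Differences were above 0 for 10 of 26 genes of fatty acid oxidation and ketogenesis (median −0.04), 16 of 35 cytosolic ribosomal protein genes (−0.02), 11 of 21 NRF2 targets (0.06), 9 of 16 heat shock genes (0.04) and 7 of 17 clock genes (−0.07). Among ATF4 targets, 17 of 22 were below 0 (median −0.13). Markers of several resident liver cells also gave no separated gene, although the medians were below 0 for sinusoidal endothelial genes (0 of 19, median −0.42, 18 differences below 0) and stellate genes (0 of 20, median −0.33, 18 below 0). KO 1 was the lowest for both lists. The mean log2 distance from WT in KO 1, KO 2 and KO 4 was −0.98, −0.21 and −0.11 for endothelial genes (WT −0.51 to 0.24). For stellate genes it was −0.90, −0.44 and −0.13 (WT −0.26 to 0.14). The summed endothelial count was 12564 to 21105 in the sterol-low, 21027 to 23961 in the sterol-normal and 16010 to 26546 in the WT livers. For Kupffer cell and macrophage genes (0 of 16) the median was −0.01.

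**Figure D5:**
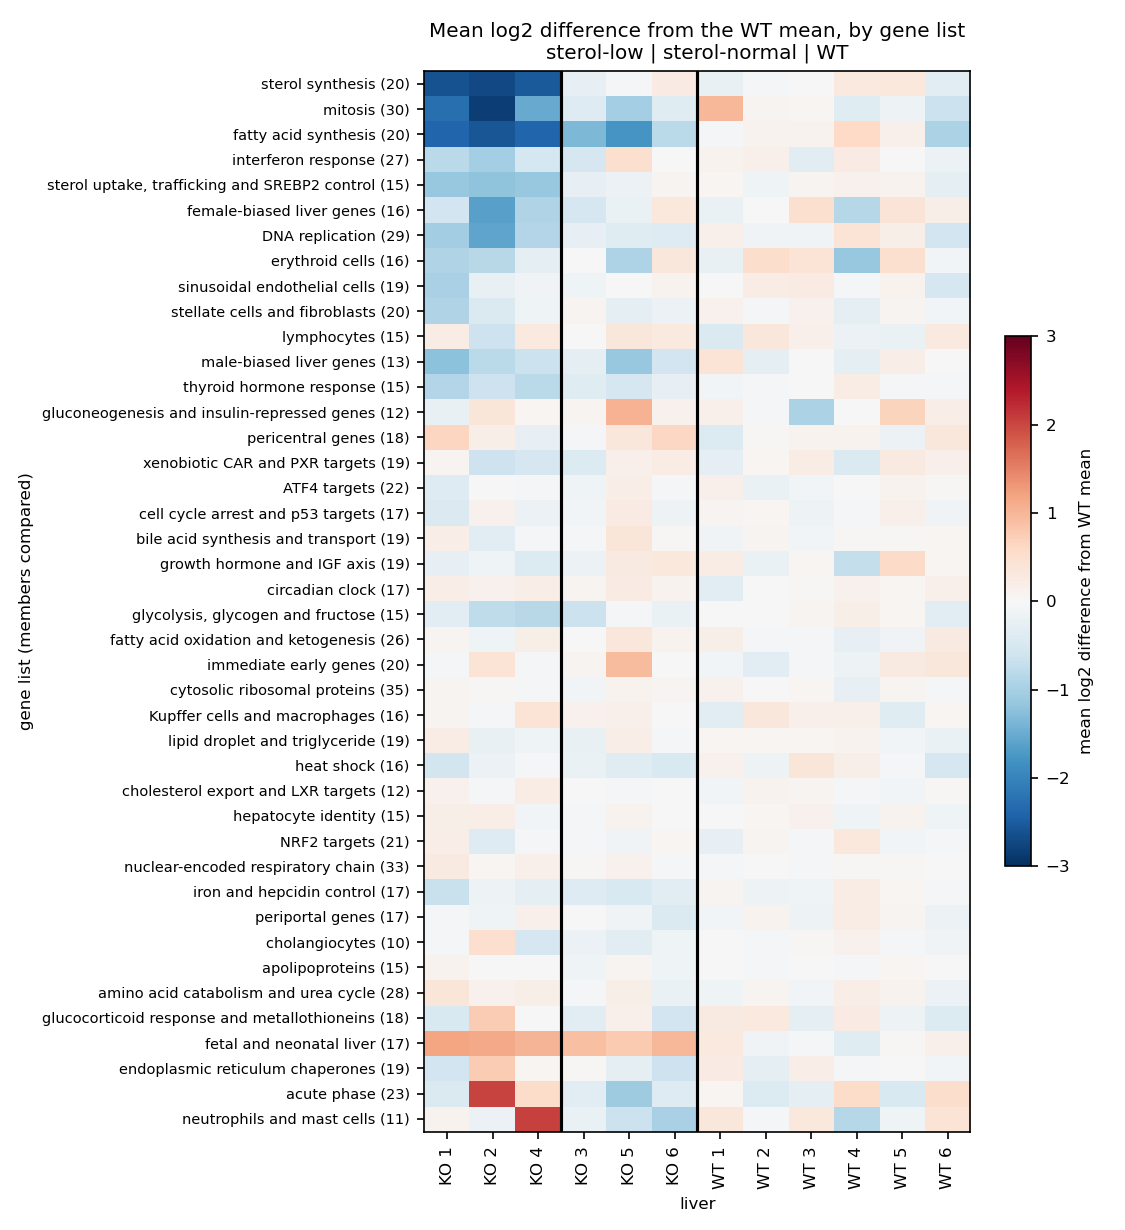
Each row is a gene list with the number of members compared, and each column is a liver, in the order sterol-low KO, sterol-normal KO and WT; the colour is the log2 distance from the WT mean, averaged over the list's members. The sterol-low columns are blue for sterol synthesis, mitosis and fatty acid synthesis; acute phase is red mainly in KO 2 (2.04) and neutrophils in KO 4 (2.04).

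Whether the same genes follow Sqle in livers that did not choose the groups was asked in the 6 WT livers, with limma's slope on log2 Sqle over 13555 genes. None passed an adjusted p of 0.05 in either direction (0.0%), and 686 had an unadjusted p under that value. edgeR on the recovered reads also called 0 and DESeq2 called 17. Sqle varied 1.37-fold among these livers, far less than between the KO groups. The slope of Idi1, in log2 units per log2 unit of Sqle, was 1.16 (limma adjusted p = 0.914). This was the lowest adjusted value of any gene, but genes in nearly all lists shared it, so it gives Idi1 no rank. Slopes were above 0 for 18 of 19 sterol synthesis genes other than Sqle. They were above 0 for 30 of 30 mitotic, 30 of 30 replication, 18 of 20 fatty acid synthesis and 4 of 23 acute phase genes, against 6826 of 13555 over all genes. Lists without a separated gene in KO were as one-sided, with slopes above 0 for 0 of 16 Kupffer cell, 0 of 15 lymphocyte, 15 of 16 heat shock, 18 of 19 endothelial and 31 of 35 ribosomal protein genes. For interferon response genes the count was 13 of 27. A one-sided count in these 6 livers therefore did not distinguish the lists that had separated genes. For fatty acid synthesis and mitotic genes, much of it rested on WT 6, which had the lowest Sqle and the Adipoq transcripts. Without WT 6 the counts were 9 of 20 fatty acid synthesis, 18 of 30 mitotic and 25 of 30 replication genes. They were 16 of 19 sterol synthesis, 12 of 23 acute phase and 6 of 27 interferon genes. Leaving out WT 5 instead gave 20 of 20 fatty acid synthesis, 30 of 30 mitotic and 28 of 30 replication genes. The same setting gave 15 of 19 sterol synthesis, 10 of 23 acute phase and 15 of 27 interferon genes.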

How the data were processed

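Per the labels' protocols, TruSeq total RNA libraries were made from the livers of 12 mice. Reads were handled with STAR, featureCounts, FastQC and DESeq2 on mm10, per the submitters' processing notes; no version, annotation or strand setting is stated there, so counts of overlapping genes are uncertain. The deposited signal is a normalized count per gene, reads scaled by the authors with 1 factor per library. In every library 100% of values were whole multiples of 1 read (tolerance 0.001), so reads could be recovered. The authors also deposited a comparison of KO with WT, with a log2 fold change and a p-value per gene, made by a procedure that no header describes; it was not used here.

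The 6 KO livers were split at a Sqle count of 1000, and genes averaging 10 or more counts over them were compared on log2(normalized count + 1). Named genes were Sqle, Idi1, Nsdhl and Lcorl, the 12 largest separated differences in each direction with a mean of at least 50 (sterol list, Gm, Rik and -ps symbols left out), and up to 4 separated members per list. Other genes were named after their values were seen. The members, lists and rules were chosen with earlier results of these data known. Among WT livers limma 3.58.1 in R 4.3.3, with a mean-variance trend and 4 residual degrees of freedom, gave two-sided p-values adjusted by Benjamini and Hochberg (threshold 0.05); edgeR 4.0.16 and DESeq2 1.42.0 on recovered reads, with other scalings, pseudocounts, filters, fold limits and left-out livers, were alternatives. The procedure was tested on simulated data. There the values standing for Sqle spread more widely than Sqle did in the WT livers, so power at the observed spread was not measured. Some members of the lists are counted but not reported by name here. Nothing states that the animals came from separate litters. Promoters are from RefSeq (GRCm38.p6) and positions from GENCODE M21 (GRCm38). Depth was 21769795 to 31296485 reads per library.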

Additional observations from a re-analysis of the deposited data

Results flagged for a closer look

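For the 59 genes named by rule, each of 118 groups of 6 livers was searched for a highest or lowest liver set apart from the other 5 by Dixon's ratio at 95% confidence. Chance alone marks about 1 in 20 groups, and the KO group falls in 2 sets by the way it was split; 16 KO and 6 WT values stood apart. KO 2 accounted for 7, all high: Orm3 at 1430, Orm2 at 12693, Orm1 at 38552, Lcn2 at 14155, Atp11a at 1638, Prg4 at 12139 and Bcl3 at 1835 normalized counts. KO 5 accounted for 5, namely Ppp1r3g at 353, Gbp10 at 643, Gbp7 at 1885, the glucose-6-phosphatase gene G6pc at 26850 and Lcorl at 2.83, where all other KO livers held 0. KO 6 stood high for Thrsp (7268), Cyp3a44 (555) and Hsd3b1 (504), and KO 4 for S100a8 (1621).

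Among WT livers, WT 6 stood apart for Igdcc4 (76.3, the highest) and Rdh11 (808, the lowest), WT 5 for Ppp1r3g (327) and Myc (2695), WT 4 for Insig1 (21598) and WT 1 for the kinetochore gene Cenpf (250.4).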

How the results depend on the processing

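No paired analysis was possible because the replicate numbers follow the order of the records and the contrast is made within 1 genotype. The count of lower genes, 239, became 146 with a mean of at least 50, 468 at 1.5-fold and 1073 without a fold limit, and ran from 220 to 362 when 1 liver was left out, 362 without KO 4. The count of higher genes, 51, was less stable. It became 27 with a pseudocount of 10, 27 with a mean of at least 50, 153 with no filter, 166 at 1.5-fold, 933 without a fold limit and 164 among KO 2, KO 3 and KO 4 alone. Leaving out 1 liver gave 60 to 129 (129 without KO 1, 122 without KO 3, 99 without KO 4, 79 without KO 5); fewer livers overlap less often by construction.

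List medians among KO 2, KO 3 and KO 4 alone moved to −0.93 for sterol uptake, 0.12 for fatty acid oxidation, −0.21 for interferon, 0.079 for the clock, 0.089 for ATF4 targets, 0.091 for ribosomal proteins and −0.053 for endothelial genes. With 1 liver left out, medians ran from −1.12 to −0.60 for sterol uptake, −0.32 to 0.032 for growth hormone and IGF, −0.18 to 0.045 for the clock, 0.11 to 0.32 for fetal liver, −1.28 to −0.46 for female-biased, −0.39 to 0.26 for male-biased, −0.19 to 0.079 for Kupffer cell and −0.24 to 0.16 for adipocyte genes. The other list medians, 625 of 644 list values in all, moved by less than 1 SD between livers, which is wide for lists that vary between livers (acute phase 0.34 to 1.35, chaperones 0.013 to 0.59 and gluconeogenesis −0.46 to 0.10 with 1 liver left out). So did 733 of 750 values of named genes; the cause of the rest was not tested. Equal totals, equal upper quartiles and TMM scaling moved the median of all genes to between −0.06 and 0.01. Among WT livers, 0 to 3 genes passed when 1 liver was left out (3 without WT 4), and 17 passed with DESeq2.

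The groups were made by a measured transcript, 3 livers to a group, and the labels do not state litter, feeding or weight. Genes with few reads, such as Cdc6 or Clspn at 3.96 normalized counts in KO 2, are the least precise.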

Other observations

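Endoplasmic reticulum chaperone genes, none of which was separated, lay above 0 in all 19 differences (median 0.35) and by liver followed KO 2, with mean log2 differences from WT of −0.58, 0.76 and 0.05 in KO 1, KO 2 and KO 4 and 0.05, −0.30 and −0.62 in KO 3, KO 5 and KO 6. Without KO 2 the median was 0.013. The sex-biased lists were mixed: 2 of 16 female-biased genes were lower (median −0.80), a count that was 8 of 17 without KO 1, 5 of 16 without KO 3, 4 of 17 without KO 5, 1 of 16 without KO 2 and 6 of 16 among KO 2, KO 3 and KO 4 alone, and of 13 male-biased genes 2 were lower and 1 higher (median −0.32). Thyroid hormone response genes gave 2 lower and 1 higher of 15 (median −0.25). Over all genes the count lower was 239 (1.77%). It was 305 without KO 1, 323 without KO 3, 306 without KO 5, 220 without KO 2 and 345 among KO 2, KO 3 and KO 4 alone.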
